A study of Mus musculus with 16 samples.

Results

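Centrocytes were set against centroblasts of wild-type mice by the accessibility of their chromatin. The comparison used 8 of the 16 libraries of the series, 4 labelled WT CC and 4 labelled WT CB, chosen by genotype and cell label alone. All 8 came from the spleen of C57BL/6 mice aged 8 to 10 weeks with the genotype Smarca4+/+. The other 8 libraries, labelled HET CC and HET CB (n = 4 each), carry Smarca4+/- and were used to look at the same contrast in samples outside this comparison. The labels write CC and CB without spelling them out, and they are read here as centrocyte and centroblast. The labels name no sort gate, no immunization and no Cre driver, and nothing in them says that replicates came from separate mice. A p-value here therefore reflects how far these libraries varied, which may include technical variation alone. Every one of the 82188 peaks in the count table belonged to the comparison, and 82035 passed the filter on low counts.

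Germinal centers are the sites in the spleen where activated B cells mutate and select their antibody genes. Centroblasts divide and hypermutate in the dark zone, held there by the chemokine receptor CXCR4. Centrocytes in the light zone test their new receptor on antigen, compete for help from T cells, and then return, die, or leave as memory or plasma cells. Smarca4, the gene that the series studies, encodes BRG1, an ATPase of the BAF complex that moves nucleosomes and opens chromatin. Omni-ATAC reads such open chromatin with a transposase that cuts where nucleosomes are absent, so a peak with more counts is a stretch of DNA that was open in more cells or alleles. In bulk samples a shift in the mix of cells and a change within each cell cannot be told apart.

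Large changes at gene starts are shown first, with the sequence of the 250 bases before the start. By the rule for named peaks they were the 3 starts with the largest rise and the 3 with the largest fall in WT CC. The rule took starts whose windows were used, whose peak lay above the median of edgeR's average accessibility and whose libraries did not overlap. Larger rises below that median, such as 3.17 over a start of Ipcef1, are therefore not shown. The starts of Klf2 and S1pr2, a factor and a receptor of B cell positioning, were added. Sequences are from RefSeq (GRCm38.p6, the assembly that mm10 denotes), 5′ to 3′ on the gene's strand. Capitals mark every match, on either strand, to the AP-1 site TGANTCA, the cAMP response element TGACGTCA, the E-box CACGTG, the E-protein site CAGCTG, the ETS site CCGGAAG, the PU.1 site GAGGAAG, the KLF site GGGNGTGG, the SP box GGGGCGG, the octamer ATGCAAAT, the CCAAT box, the NRF1 site GCGCATGC, the RUNX site TGTGGT, the NF-kB site GGGANTTCC and the FOXO site GTAAACA. The SP and KLF letters can overlap each other in GC-rich DNA.
Arrdc4: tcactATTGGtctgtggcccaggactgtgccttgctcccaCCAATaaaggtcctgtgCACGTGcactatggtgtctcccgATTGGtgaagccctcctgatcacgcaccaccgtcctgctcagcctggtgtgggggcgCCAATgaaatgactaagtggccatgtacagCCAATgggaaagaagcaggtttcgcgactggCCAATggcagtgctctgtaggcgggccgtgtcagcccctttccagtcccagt
Gm9875: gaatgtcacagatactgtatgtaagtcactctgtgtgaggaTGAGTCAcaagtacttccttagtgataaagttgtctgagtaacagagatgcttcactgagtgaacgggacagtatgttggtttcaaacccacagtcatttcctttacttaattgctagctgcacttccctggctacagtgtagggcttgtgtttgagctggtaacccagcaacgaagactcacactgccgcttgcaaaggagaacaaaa
S100a3: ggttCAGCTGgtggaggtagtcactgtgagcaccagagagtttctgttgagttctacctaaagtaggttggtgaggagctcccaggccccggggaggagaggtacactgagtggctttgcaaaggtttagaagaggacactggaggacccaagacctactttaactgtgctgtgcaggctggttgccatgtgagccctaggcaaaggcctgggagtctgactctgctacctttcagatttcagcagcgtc
Cdc14a: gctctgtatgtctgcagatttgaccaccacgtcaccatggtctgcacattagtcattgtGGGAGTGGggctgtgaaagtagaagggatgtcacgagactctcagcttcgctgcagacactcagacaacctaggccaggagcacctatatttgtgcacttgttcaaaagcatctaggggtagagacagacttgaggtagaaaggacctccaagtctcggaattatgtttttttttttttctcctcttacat
Gm52672: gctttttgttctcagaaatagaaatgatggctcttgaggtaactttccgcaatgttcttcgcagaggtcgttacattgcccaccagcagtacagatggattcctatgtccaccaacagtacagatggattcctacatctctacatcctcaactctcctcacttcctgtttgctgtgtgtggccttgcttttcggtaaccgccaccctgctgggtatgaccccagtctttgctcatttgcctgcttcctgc
Slc39a11: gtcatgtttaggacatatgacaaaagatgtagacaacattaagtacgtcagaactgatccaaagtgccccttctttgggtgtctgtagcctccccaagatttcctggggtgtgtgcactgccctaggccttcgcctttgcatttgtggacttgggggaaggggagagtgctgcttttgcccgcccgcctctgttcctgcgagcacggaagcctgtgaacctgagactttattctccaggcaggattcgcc
Klf2: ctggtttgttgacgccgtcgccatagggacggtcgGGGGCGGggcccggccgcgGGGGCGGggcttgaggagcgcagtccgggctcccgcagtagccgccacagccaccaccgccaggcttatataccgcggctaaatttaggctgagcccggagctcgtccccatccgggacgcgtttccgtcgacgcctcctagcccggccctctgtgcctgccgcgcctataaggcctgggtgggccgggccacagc
S1pr2: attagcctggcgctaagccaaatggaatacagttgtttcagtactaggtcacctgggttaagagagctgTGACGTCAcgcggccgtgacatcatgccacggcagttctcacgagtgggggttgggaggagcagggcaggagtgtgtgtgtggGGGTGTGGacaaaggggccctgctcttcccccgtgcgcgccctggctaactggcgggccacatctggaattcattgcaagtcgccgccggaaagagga

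The Arrdc4 window, chr7:68749239-68749488 on the minus strand, lay wholly inside a peak that ranked first for its rise among peaks above the median of edgeR's average accessibility whose libraries did not overlap. Arrdc4 encodes an arrestin-domain protein and is known as a gene induced by glucose. The peak, on chromosome 7 from 68749047 to 68749547 (mm10), held 35.7, 24.5, 37.2 and 22.6 CPM (counts scaled to the effective library size) in the WT CC libraries, against 2.49, 2.28, 2.37 and 2.97 CPM in the WT CB libraries. The lowest WT CC library stood far above the highest WT CB library, and the log2 fold change was 3.57 (SE 0.164, adjusted p = 8.8e-20 by the quasi-likelihood test of edgeR, as for all adjusted p-values below unless another test is named). Its window held 6 CCAAT boxes and 1 E-box. Of 32817 RefSeq windows of the same length, 19 held 6 or more CCAAT letters and 6.02% held an E-box. Among the 12547 windows over a tested peak, 13 held 6 or more CCAAT letters and 8.78% an E-box. Windows on chromosome 18 were not used here.

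The window of Gm9875, chr2:13558653-13558902 on the plus strand, held 1 AP-1 site, as did 6.75% of all windows and 3.93% of those over a tested peak. Its peak stood at 27.2, 35.9, 29.4 and 23.7 CPM in WT CC, against 4.35, 5.27, 5.25 and 3.74 CPM in WT CB (log2 2.64, SE 0.148, adjusted p = 2.48e-17). S100a3, which encodes a calcium-binding protein of the S100 family, had 150 of its 250 bases (chr3:90586702-90586951, plus strand) inside a peak that averaged 26.9 ± 3.45 CPM in WT CC and 4.34 ± 0.415 CPM in WT CB (SD, n = 4 each), with a log2 change of 2.63. Among the falls, the peak at the Cdc14a window (chr3:116354245-116354494, minus strand) held 2.47, 3.21, 1.96 and 1.63 CPM in WT CC, against 13.1, 15.4, 12.5 and 15.3 CPM in WT CB (log2 -2.61, SE 0.228, adjusted p = 2.89e-12). Cdc14a encodes a phosphatase that acts on substrates of cyclin-dependent kinases. The peaks at Gm52672 (chr4:106904867-106905116, plus strand) and Slc39a11, a zinc transporter gene (chr11:113565816-113566065, minus strand, 21 bases inside the peak), fell by 2.44 and 2.21 on the log2 scale. In none of these 6 pairs of groups did the libraries overlap, which the rule required.

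At Klf2 (chr8:72318812-72319061, plus strand) the start peak held 76.4, 99.5, 68.5 and 93.7 CPM in WT CC, against 43.9, 42.3, 42.1 and 43.4 CPM in WT CB (log2 0.98, SE 0.08, adjusted p = 5.45e-13). The window is rich in CpG, with 29 such sites, and held 2 SP boxes. At S1pr2 (chr9:20976794-20977043, minus strand) the start peak held 14.3, 10.8, 17.9 and 13.4 CPM in WT CC, against 28.3, 24.5, 27.1 and 23.1 CPM in WT CB (log2 -0.87, SE 0.131, adjusted p = 4.49e-07). Its window held 1 cAMP response element, as did 1.55% of all windows, and 1 KLF site, as did 15.9%. Among windows over a tested peak these shares were 2.73% and 21.4%. Every WT CC library was above every WT CB library at Klf2 and below every one at S1pr2.

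Starts whose peak changed and starts whose peak was not called held some motifs at different shares. These shares are descriptions without a test, and CpG content differs between the classes as well. The median window held 12 CpG sites where the peak was more than 1.5-fold higher in WT CC, 12 where it was more than 1.5-fold lower, and 16 where it was not called. The ETS site was in 4.44% of the 1215 windows over a peak more than 1.5-fold higher, in 3.94% of the 381 windows over a peak more than 1.5-fold lower, and in 15.1% of the 5098 windows over a peak not called. The PU.1 site was in 14.7% of the windows with a higher peak, 6.82% of those with a lower peak and 10.5% of those with no call. The octamer, the site of OCT factors in B cells, was in 1.23% of windows with a higher peak, 4.2% of those with a lower peak and 1.24% of those with no call. The NF-kB site was in 2.47% of windows with a higher peak, 1.05% of those with a lower peak and 2.18% of those with no call, and the E-box in 7.41%, 7.35% and 8.51% in the same order.

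Depth split the 8 libraries by group. Totals were 3494356 to 3750936 counts in WT CC, with a median of 22 to 24 counts per peak, and 31696941 to 38798802 in WT CB, with a median of 215 to 267. The WT CC libraries set the precision: their biological coefficient of variation was 21.7%, against 8.4% for WT CB. Counting intervals would cover counting error only, since reads of amplified libraries are not independent molecules. Pearson correlations of log CPM between replicates were 0.866 to 0.875 in WT CC and 0.985 to 0.99 in WT CB. The first principal component held 66.7% of the variance and put WT CC at 138.7 to 159.6 and WT CB at -152.1 to -141.1. On the second component (10.4%), WT CC replicate 2 lay at -139.8 and the other WT CC libraries at 42.5 to 54.3. Within WT CB, deviations from the group mean correlated at -0.062 for the pair of replicates 1 and 3 and at -0.135 for the pair 2 and 4. Across these pairs the correlations were -0.44 to -0.46. Taking out the mean of 4 libraries makes such correlations negative by itself, and those within WT CC were -0.353 to -0.295. Counts below that lead a paragraph were therefore also taken without WT CC replicate 2 and with either pair of WT CB libraries, and are given where they moved by more than 1.5 times.

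Accessibility differed widely between WT CC and WT CB. An adjusted p below 0.05 was called a change, and 46629 of 82035 peaks (56.8%) were called: 24044 rose in WT CC (29.3%) and 22585 fell (27.5%). Changes of more than 1.5-fold, tested against that fold with glmTreat, numbered 13020 higher (15.9%) and 8832 lower (10.8%). Among called peaks, 6092 were more than 4-fold higher and 547 more than 4-fold lower in WT CC. Every WT CC library lay above every WT CB library at 20341 of the 82035 peaks and below every one at 20032. The split rests on the scaling: with upper quartile factors the median log2 change of all peaks moved by 0.24, and 69.7% of the called peaks were higher, against 51.6% with TMM factors, and the lower peaks numbered 14224. Counts of WT CB thinned to the depth of WT CC gave 16985 higher and 15697 lower peaks, 52.0% of them higher.

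Position and accessibility both went with the direction. Within 1 kb of a gene end 31.3% of 17716 peaks rose in WT CC and 23.6% fell, while inside genes 26.3% of 37254 rose and 31.3% fell. More than 50 kb from any protein-coding gene 44.5% of 7378 peaks were higher and 22.3% lower. Outside chromosome 18, peaks over a RefSeq start were higher in 40.8% and lower in 17.9% of 10646 cases, and the other 68929 peaks in 27.5% and 29.1%. When peaks were ranked by the mean of both group means, so that WT CC and WT CB weighed the same, 40.6% of the lowest 20% were higher in WT CC and 12.4% lower, with medians of 2.42 CPM in WT CC and 1.84 CPM in WT CB. In the 20% next to the highest, 15.7% were higher and 46.0% lower. The highest 20% went the other way, with 35.3% higher and 24.9% lower. A ranking by edgeR's average, in which the deeper WT CB libraries weigh more, gives 60.4% higher and 4.19% lower in the lowest 20%, since it places peaks that are weak in WT CB there. WT CC counts at the lowest 20% rest on few reads per peak and library, and the part of background signal in them was not tested. By chromosome, the share of higher peaks ran from 22% on chromosome 19 to 37.8% on chromosome 10.

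**Figure D1:**
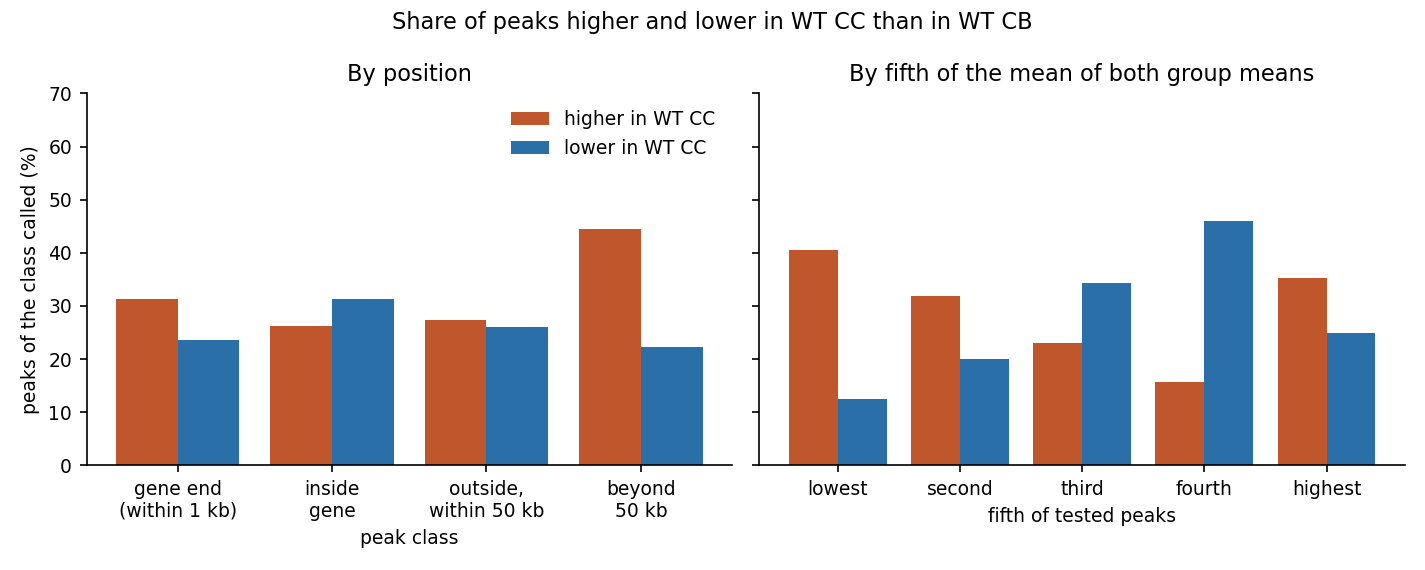
Share of tested peaks called higher (orange) or lower (blue) in WT CC than in WT CB, in percent of each class, by position relative to protein-coding genes (left) and in 5 equal steps of the mean of both group means (right). Higher peaks make up 40.6% of the lowest 20% and 44.5% of the peaks beyond 50 kb, and lower peaks 46.0% of the step next to the highest. In the highest step 35.3% are higher and 24.9% lower.

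Counts shifted toward gene ends. The gene end class held 45.4 ± 0.381% of all WT CC counts, against 41.8 ± 0.247% for WT CB (SD, n = 4 each), a difference of 3.57 percentage points. Peaks inside genes held 32.8 ± 0.194% in WT CC and 35.8 ± 0.0569% in WT CB, a difference of -2.99 points. Peaks outside genes but within 50 kb took 16.3% of WT CC counts and 17.2% of WT CB counts, and those beyond 50 kb 5.56% in WT CC and 5.23% in WT CB. The two-sided exact permutation p was 0.0286, the smallest that the 70 splits of 4 against 4 libraries allow (0.0286 after adjustment over the 4 classes). Without WT CC replicate 2 or replicate 4 the class beyond 50 kb no longer passed (exact permutation p = 0.0571).

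Summed over the peaks nearest to each gene, up to 50 kb away, 9322 of 15064 loci (61.9%) were called, 4633 higher (30.8%) and 4689 lower (31.1%) in WT CC. More than 1.5-fold, 1308 were higher (8.68%) and 702 lower (4.66%). The median log2 change of all loci was -0.01. These shares are the background against which each group of genes below is read, and a locus value is the accessibility around a gene, not its transcription. Every WT CC library lay above every WT CB library at 3972 of the 15064 loci and below every one at 4123. Groups that did not overlap were therefore common. Counting only peaks inside a gene or within 1 kb turned the direction of 7 of the loci named below: Bhlhe41, Cd4, Elk3, Foxo1, Id3, Irf4 and Sdc1.

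Both labels were checked against marker loci. The 10 B cell loci, among them Cd79a, Cd79b, Ms4a1, Pax5, Ebf1, Cd22, Blnk, Pou2af1 and Cd74, were open in every library, with a summed level of 1830 to 2090 CPM in WT CC and 2400 to 2520 CPM in WT CB. Of these 10, 8 were lower in WT CC, 0 higher, and the median log2 change was -0.23. Cd79a, the signalling chain of the B cell receptor, held 76.5 ± 11 CPM in WT CC and 73.6 ± 2.74 CPM in WT CB (adjusted p = 0.528). Without WT CC replicate 4 Cd79b was called lower (-0.25). Bcl6, the repressor that sets up the germinal center, held 168, 161, 151 and 157 CPM in WT CC, against 161, 147, 156 and 151 CPM in WT CB (log2 0.06, adjusted p = 0.382). With only the peaks inside the gene or within 1 kb Bcl6 was called higher (0.35). Cxcr4, the dark zone receptor, held 459, 467, 431 and 495 CPM in WT CC, against 570, 589, 588 and 593 CPM in WT CB (log2 -0.34, SE 0.0421, adjusted p = 5.24e-08). Its direction is that of the labels. Cd86, a light zone marker that binds CD28 on T cells, had the direction opposite to the labels: the locus held 177, 178, 177 and 183 CPM in WT CC, against 318, 300, 317 and 300 CPM in WT CB (log2 -0.79, SE 0.0474, adjusted p = 1.1e-14). Cd83, another light zone marker, did too, at 337, 323, 326 and 379 CPM in WT CC and 414, 375, 414 and 381 CPM in WT CB, where the groups overlapped (log2 -0.21, adjusted p = 0.000491). Cd83 was not called with cyclic loess scaling (-0.13), nor between HET CC and HET CB (log2 -0.01, adjusted p = 0.74).

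Genes that set germinal center identity and keep B cells inside the follicle were mostly less open in WT CC. Of 23 tested, 17 fell and 3 rose (73.9% and 13.0%, median -0.53). Fas, the death receptor that marks these cells, held 86.8, 84.6, 86.1 and 114 CPM in WT CC, against 183, 198, 191 and 201 CPM in WT CB (log2 -1.05, SE 0.069, adjusted p = 9.03e-14). S1pr2, the receptor that keeps B cells in the follicle, held 48.5, 32.5, 52.8 and 59.8 CPM in WT CC, against 152, 138, 147 and 140 CPM in WT CB, and all 5 of its peaks were lower (log2 -1.57, adjusted p = 5.59e-15). At both loci the highest WT CC library lay below the lowest WT CB library. The adaptor Gcsam (-1.68), the chemokine scavenger Ackr4 (-1.71), the nuclear GTPase Nuggc (-0.96) and Gna13 (-0.60), the G protein subunit downstream of S1PR2, fell as well. Arhgef1, the exchange factor that Gna13 activates, went the other way, at 185 ± 2.75 CPM in WT CC and 128 ± 4.36 CPM in WT CB (log2 0.54, adjusted p = 2.37e-10), and Cd38 (0.31) and the single Serpina9 peak (1.31, with 4.32 CPM in WT CC and 1.73 CPM in WT CB) also rose.

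Dark zone and hypermutation genes fell in 10 of 17 cases and rose in 2 (58.8% and 11.8%, median -0.18). The rises were Fbxo5 (0.55), an inhibitor of the anaphase-promoting complex, and Pcna (0.23), the sliding clamp of DNA replication. Rev1, a polymerase that writes mutations, held 88.9 ± 17.9 CPM in WT CC and 141 ± 6.78 CPM in WT CB (log2 -0.67, adjusted p = 2.81e-08). With only the peaks inside the gene or within 1 kb Rev1 was not called (-0.22). Ung, which removes uracil from DNA, fell by 0.45 with groups that overlapped. Foxo1, the transcription factor of the dark zone, fell by 0.17 (adjusted p = 0.00127), and Tcf3, which encodes an E protein, held 115 ± 10.8 CPM in WT CC and 121 ± 8.03 CPM in WT CB (adjusted p = 0.327). Without WT CC replicate 2, and with either pair of WT CB libraries, 1 of the 2 rises was left and 9 members fell. The Pcna call also ended without WT CC replicate 3 (0.17) or WT CB replicate 1 (0.23) or 4 (0.20).

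Mitosis and cell cycle loci were more often lower than higher. Of 29 genes tested 16 were lower and 6 higher (55.2% and 20.7%, median -0.16). The mitotic genes Plk1, at 28.4 ± 4.55 CPM in WT CC and 54.8 ± 1.31 CPM in WT CB (log2 -0.95, adjusted p = 5.52e-10), Ccnb2 (-0.83) and Foxm1 (-0.76) fell most. Ccnd2, a G1 cyclin, held 213, 199, 196 and 165 CPM in WT CC, against 115, 115, 114 and 112 CPM in WT CB (log2 0.76, SE 0.059, adjusted p = 3.55e-12). Cdkn1b, the inhibitor p27 that holds cells out of division, held 304, 292, 327 and 316 CPM in WT CC, against 204, 211, 205 and 208 CPM in WT CB (log2 0.58, adjusted p = 4.72e-12), and Ccne1, the cyclin of entry into S phase, rose by 0.51. The WT CC libraries were above all WT CB libraries at these 3 loci. The other rises were Cdk4 (0.31), Mcm5 (0.28) and Ccna2 (0.16). The G1 genes Cdk6 (-0.39), Cdk2 (-0.64) and Ccne2 (-0.25) fell, so the phases were not set apart. The Ccna2 call ended without WT CC replicate 2 (0.16) or 3 (0.10) or WT CB replicate 1 (0.14), 2 (0.16) or 3 (0.15), and the Ccne2 call without WT CC replicate 2 (-0.21), 3 (-0.21) or 4 (-0.19).

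Light zone genes and genes of T cell help were mostly lower in WT CC. Of 24 tested, 14 were lower and 5 higher in WT CC (58.3% and 20.8%, median -0.16). Against 1.5-fold 1 passed as lower and 0 as higher. Cd40, the receptor through which T cells help, held 66.2, 78.0, 70.6 and 64.9 CPM in WT CC, against 109, 95.0, 103 and 104 CPM in WT CB (log2 -0.56, SE 0.0697, adjusted p = 5.63e-08). Cd80 (-0.69) and Cd274 (-0.54), a costimulatory and an inhibitory ligand, fell too, as did Batf (-0.45). Bcl2a1d had the most negative value (-1.65) at 0.577 CPM in WT CC and 1.85 CPM in WT CB, and its near-identical copies make it uncertain. The rises lay at the adhesion ligand Icam1 (0.22), the activation genes Nr4a1 (0.17), Cd69 (0.17) and Egr3 (0.16), and Myc (0.16), the driver of re-entry into the dark zone. Myc held 276, 269, 304 and 308 CPM in WT CC, against 248, 265, 258 and 262 CPM in WT CB (adjusted p = 0.00463), with the lowest WT CC library just above the highest WT CB library. Myc was not called with WT CB replicates 2 and 4 alone (0.13), nor between HET CC and HET CB (log2 0.04, adjusted p = 0.422). With WT CB replicates 1 and 3 alone 2 members rose and 13 fell, and with replicates 2 and 4 alone 4 rose and 9 fell. The Egr3 call ended without WT CC replicate 1 (0.16) or 3 (0.08) or WT CB replicate 2 (0.14) or 4 (0.13), that of Icam1 without WT CC replicate 1 (0.12), and that of Nr4a1 without WT CC replicate 4 (0.14).

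B cell receptor signaling was lower at most of its loci, 20 of 33 with 4 higher (60.6% and 12.1%, median -0.20). Against 1.5-fold 1 passed as lower and 0 as higher. Rasgrp3, which activates RAS below the receptor, held 340, 356, 354 and 392 CPM in WT CC, against 555, 622, 586 and 631 CPM in WT CB (log2 -0.73, SE 0.048, adjusted p = 9.92e-14), and 20 of its 24 peaks were lower with 0 higher. The SRC-family kinase Blk (-0.51), the exchange factor Vav2 (-0.53), the scaffold Bank1 (-0.53) and the phospholipase Plcg2 (-0.49) fell. The 4 that rose were Bcl10 (0.46), which links the receptor to NF-kB, the ubiquitin ligase Cblb (0.31), the kinase Fyn (0.17) and the calcium channel Itpr1 (0.10). The Itpr1 call ended without WT CC replicate 3 (0.10) or 4 (0.08) or WT CB replicate 1 (0.07) or 3 (0.09).

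NF-kB genes were more often higher, with 12 of 21 higher and 4 lower (57.1% and 19.0%, median 0.27). None passed the test against 1.5-fold in either direction. Rel, the subunit c-REL that light zone cells need, held 244, 242, 252 and 256 CPM in WT CC, against 180, 177, 181 and 180 CPM in WT CB (log2 0.47, SE 0.0461, adjusted p = 5.18e-10). The kinase Ikbkb (0.63), the nuclear inhibitor Nfkbid (0.63), the co-activator Bcl3 (0.62) and Traf2 (0.53) rose most. Nfkb1, the gene of the p50 subunit, held 377, 391, 403 and 417 CPM in WT CC, against 502, 523, 510 and 526 CPM in WT CB (log2 -0.38, adjusted p = 5.65e-09). Chuk (-0.65), Tnip1 (-0.27) and Map3k14 (-0.17) fell as well, the last not called without WT CC replicate 1 (-0.13) or 3 (-0.14) or WT CB replicate 3 (-0.13).

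Transcription factors of the KLF family, zinc finger proteins that include regulators of quiescence and migration, were higher at 12 of 15 loci and lower at 2 (80.0% and 13.3%, median 0.42). Klf2, which drives S1pr1 and keeps lymphocytes quiescent, held 124, 153, 117 and 135 CPM in WT CC, against 75.2, 72.5, 75.8 and 74.1 CPM in WT CB (log2 0.83, SE 0.066, adjusted p = 6.19e-12). Klf3 held 110, 99.6, 112 and 99.6 CPM in WT CC, against 47.1, 48.7, 51.4 and 44.5 CPM in WT CB (log2 1.14, SE 0.0699, adjusted p = 1.88e-14), and all 8 of its peaks were higher. Klf6 (0.75), Klf4 (0.81), Klf5 (0.89) and Klf15, at 15.7 ± 1.29 CPM in WT CC and 3.10 ± 0.426 CPM in WT CB (log2 2.34), rose as well. Klf8 (-0.37) and Klf1 (-0.49) fell. The counts were 12 and 2 without WT CC replicate 2.

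Nuclear receptors rose in 11 of 15 cases, with 1 fall (73.3% and 6.67%, median 0.32). Esr1, the estrogen receptor, held 66.0, 76.5, 85.8 and 68.6 CPM in WT CC, against 28.2, 30.3, 27.9 and 29.6 CPM in WT CB (log2 1.35, SE 0.0833, adjusted p = 2.2e-14), and 11 of its 12 peaks were higher. The retinoid receptors Rxra (1.36) and Rarg (1.10) and the orphan receptor Nr4a2 (0.98) rose. The vitamin D receptor Vdr fell by 0.38.

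Other factor families held both directions. Shares higher and lower were 26.3% and 26.3% for ETS factors and 25.0% and 25.0% for IRF and STAT genes. They were 28.6% and 42.9% for AP-1 and BACH genes and 46.7% and 26.7% for E proteins and ID factors. All loci had 30.8% and 31.1%. Among 21 AP-1 and BACH genes 6 were higher and 9 lower. Jun held 450, 415, 457 and 426 CPM in WT CC, against 233, 232, 247 and 236 CPM in WT CB (log2 0.88, SE 0.0443, adjusted p = 1.97e-16), and its family members Maf (1.06) and Fosl2 (0.82) rose, while Jdp2, a repressor of AP-1, held 84.8, 76.8, 84.4 and 79.3 CPM in WT CC, against 149, 147, 153 and 139 CPM in WT CB (log2 -0.85, adjusted p = 4.98e-13). Maff (-0.62) and Batf fell. E proteins and their ID inhibitors had 7 higher and 4 lower of 15, the falls being Id3 (-0.49), Tcf4 (-0.41), Tcf12 (-0.39) and Bhlhe41 (-0.39). Of 19 ETS factors 5 rose and 5 fell, with Spic (2.28, with 11.4 CPM in WT CC and 2.36 CPM in WT CB), Erf (0.77) and Gabpa (0.65) at one end and Etv4 (-0.98), Etv6 (-0.43) and Elk3 (-0.39) at the other. Etv5 (0.35) and Fli1 (0.10) also rose, and Spib (-0.33) and Elk4 (-0.14) fell. Spi1, which encodes PU.1, held 108 ± 5.72 CPM in WT CC and 118 ± 3.36 CPM in WT CB (adjusted p = 0.0795). Of 16 IRF and STAT genes 4 rose, led by Stat4 (0.57), Irf9 (0.49), Irf1 (0.35) and Irf2 (0.10), and 4 fell, Irf7 (-0.56), Stat5b (-0.42), Irf8 (-0.39), a factor of germinal center B cells, and Irf4. The smallest of these changes lie near the threshold of the test, and leaving out 1 library ended the call while the change stayed about the same: the Fli1 call ended without each library in turn other than WT CC replicate 2 (0.08 to 0.11), that of Irf2 without WT CC replicate 1 or 4 or WT CB replicate 1 or 3 (0.08 to 0.10), and that of Elk4 without WT CC replicate 2 (-0.11). Without WT CC replicate 2 Spi1 was called lower (-0.15).

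Of 30 B lineage and lymphoid factors tested, 12 were higher and 16 lower in WT CC (40.0% and 53.3%). Tox2, a chromatin factor known from follicular helper T cells, held 111, 126, 91.1 and 119 CPM in WT CC, against 266, 301, 262 and 286 CPM in WT CB (log2 -1.32, SE 0.0676, adjusted p = 3.63e-16), with 19 of its 23 peaks lower. Pou2af1, the OCT co-activator that B cells need for germinal centers, held 97.6 ± 6.84 CPM in WT CC and 162 ± 4.43 CPM in WT CB (log2 -0.73), and Ebf1, the early B cell factor, fell by 0.51 with 33 of its 52 peaks lower and 0 higher. The factors that rose most, Ikzf2 (2.52), Bcl11b (2.29), Tcf7 (1.68) and Lef1 (1.24), are known from T cells, and the T cell marker values below stand beside them.

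Receptors that guide migration were more often higher than lower, 15 and 6 of 32 (46.9% and 18.8%, median 0.13). S1pr1, the receptor that draws lymphocytes into blood and lymph, held 437, 497, 437 and 467 CPM in WT CC, against 338, 347, 330 and 338 CPM in WT CB (log2 0.44, SE 0.0444, adjusted p = 8.47e-10), with 15 of 25 peaks higher and 1 lower. Ccr7, which leads cells toward the T cell zone, held 217, 268, 236 and 237 CPM in WT CC, against 155, 156, 154 and 160 CPM in WT CB (log2 0.62, adjusted p = 3.48e-11). S1pr1 was higher in every WT CC library and S1pr2 lower. Ackr3 (2.26), Ccr9 (1.17), Ccr2 (1.16) and Ccr3 (0.91) rose as well, and the falls besides S1pr2, Ackr4 and Cxcr4 were Cxcr3 (-0.90), Ackr2 (-0.52) and S1pr3 (-0.40). With only the peaks inside the gene or within 1 kb Ccr2 (0.08) and Cxcr3 (-0.13) were not called, nor was Ccr2 within 10 kb (0.305). Ccr6 (157 ± 9.47 CPM in WT CC and 152 ± 4.54 CPM in WT CB, adjusted p = 0.408), Cxcr5 (186 ± 16.6 CPM in WT CC and 177 ± 10.5 CPM in WT CB, adjusted p = 0.3) and Gpr183 (143 ± 7.32 CPM in WT CC and 144 ± 5.72 CPM in WT CB, adjusted p = 0.89), 3 receptors of follicle positioning, did not pass the test. Ccr6 was called higher with the peaks inside the gene or within 1 kb (0.21) or within 10 kb (0.23).

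Adhesion genes had 15 higher and 11 lower of 30. Selp (1.92), Itga2 (1.41) and Pecam1 (1.10) rose, and so did Vcam1 (2.44), at 6.54 CPM in WT CC and 1.20 CPM in WT CB. Itgb3, the integrin beta 3 chain, held 156, 153, 159 and 152 CPM in WT CC, against 296, 323, 301 and 313 CPM in WT CB (log2 -0.99, SE 0.0493, adjusted p = 1.53e-16), and Cd81, a tetraspanin, fell by 0.72.

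**Figure D2:**
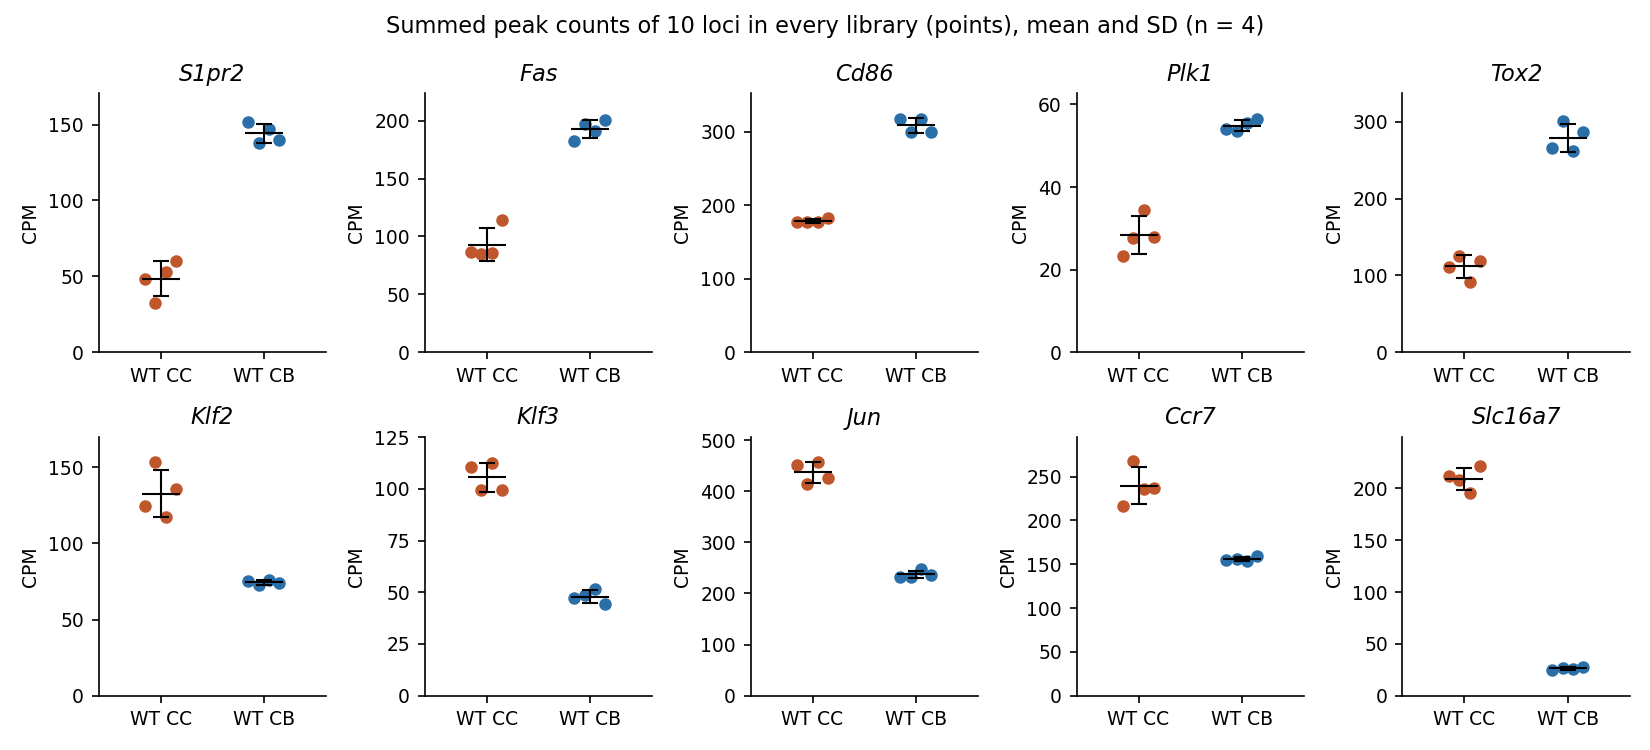
Summed peak counts in CPM of 10 loci in each WT CC library (orange, left) and each WT CB library (blue, right), with the mean and SD of 4 libraries. The groups do not overlap at any of these loci, as at 3972 (WT CC above) and 4123 (WT CC below) of all 15064 loci. S1pr2, Fas, Cd86, Plk1 and Tox2 are lower in WT CC, and Klf2, Klf3, Jun, Ccr7 and Slc16a7 higher.

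Cytokine receptors rose at 13 of 30 loci and fell at 8 (43.3% and 26.7%). Il7r, the interleukin 7 receptor of memory and naive lymphocytes, held 28.0, 44.6, 34.4 and 33.9 CPM in WT CC, against 4.92, 6.28, 5.85 and 6.49 CPM in WT CB (log2 2.58, SE 0.144, adjusted p = 2.19e-15). Il18r1 (2.85), Il12rb2 (2.52), Il18rap (2.10) and Tgfbr3 (1.84) rose with it. These loci are known from T and NK cells as well. Il1r1 (-0.81), Il1r2 (-0.75), Csf2rb (-0.39) and Il6ra (-0.32) fell. Of 27 TNF ligands and receptors 11 were higher and 12 lower (40.7% and 44.4%). The rises were led by Tnfsf8 (2.40), Ltbr (2.27), Tnfrsf1a (1.58) and Tnfsf11 (1.48). Fas, Tnfsf9 (-0.89), Tnfsf14 (-0.73) and Tnfrsf17 (-0.71), the receptor BCMA, lay at the far end of the falls.

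Survival genes had 9 higher and 11 lower of 30 (30.0% and 36.7%), near the shares of all loci (30.8% and 31.1%). Bcl2, the survival factor that germinal center cells repress, held 354, 381, 385 and 387 CPM in WT CC, against 253, 264, 250 and 263 CPM in WT CB (log2 0.55, SE 0.0443, adjusted p = 8.05e-12), with 23 of its 31 peaks higher and 0 lower. Bcl2l11, which encodes BIM, a killer that BCL2 binds, held 175, 169, 166 and 165 CPM in WT CC, against 270, 276, 280 and 274 CPM in WT CB (log2 -0.71, SE 0.0475, adjusted p = 1.47e-13), with 8 of 12 peaks lower. The groups did not overlap at either locus. Bmf (-0.40) and Bik (-1.63, with 3.71 CPM in WT CC and 11.4 CPM in WT CB), both BH3-only genes, fell, and the inhibitors of apoptosis Xiap (0.63), Birc3 (0.50) and Birc2 (0.37) rose, while Bok (2.65), a BCL2 family member, rose to 4.80 CPM in WT CC, against 0.76 CPM in WT CB.

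Memory B cell genes rose at 12 of 23 loci and fell at 6 (52.2% and 26.1%, median 0.22). Beside Il7r, Klf2 and Klf3, the rises were led by Ski, a corepressor of TGF-beta signaling, at 214, 241, 225 and 224 CPM in WT CC, against 107, 102, 108 and 106 CPM in WT CB (log2 1.10, SE 0.0512, adjusted p = 3.75e-17), and by Vim (0.98). The falls included Nt5e, the ectoenzyme CD73 of memory B cells (-0.98), Zbtb32 (-0.64), a zinc finger repressor, and Itgb1 (-0.41), the integrin beta 1 chain. Naive follicular genes, which share Klf2, Ccr7 and S1pr1 with other lists, had 6 higher and 4 lower of 14 (42.9% and 28.6%). Cd1d1 rose by 1.23, and Dtx1 (-0.47), Zbtb20 (-0.41), Foxp1 (-0.20, but 0.03 and not called with cyclic loess scaling) and Cr2 (-0.17) fell. The Cr2 call ended with WT CB replicates 1 and 3 alone (-0.094).

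Plasma cell genes had 5 higher and 9 lower of 17 (29.4% and 52.9%, median -0.13). Prdm1, the master regulator BLIMP1, held 160, 175, 172 and 185 CPM in WT CC, against 122, 125, 128 and 124 CPM in WT CB (log2 0.47, SE 0.0533, adjusted p = 8.48e-09), and 6 of its 13 peaks were higher with 0 lower. Creb3l2 (0.60), Fkbp11 (0.71), Sdc1 (0.39) and Ern1 (0.19), genes of the secretory program, rose too. With only the peaks inside the gene or within 1 kb Fkbp11 was not called (0.13) and Sdc1 was lower (-0.50). Jchain, the chain that joins antibody units, held 46.8, 41.2, 46.7 and 41.5 CPM in WT CC, against 108, 110, 110 and 116 CPM in WT CB (log2 -1.33, SE 0.0713, adjusted p = 7.15e-16), and Slamf7 (-0.83), Mzb1 (-0.73) and Irf4 (-0.13, adjusted p = 0.0278) fell. The Irf4 call ended without WT CC replicate 1, 2 or 3 or WT CB replicate 1 or 3 (-0.13 to -0.11), and that of Ern1 without WT CC replicate 2 (0.14).

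Growth genes had 9 higher and 8 lower of 24 (37.5% and 33.3%, against 30.8% and 31.1% of all loci). Carriers of lactate and pyruvate were on both sides. With either pair of WT CB libraries 6 rose and 8 fell. Slc16a7, the transporter MCT2, held 212, 208, 196 and 221 CPM in WT CC, against 24.4, 27.0, 26.2 and 27.9 CPM in WT CB (log2 2.99, SE 0.0628, adjusted p = 3.15e-25), with all 11 of its peaks higher. Its relatives Slc16a3, at 24.7 ± 3.33 CPM in WT CC and 50.7 ± 1.21 CPM in WT CB (log2 -1.03, adjusted p = 1.2e-10), and Slc16a1 (-0.58) fell. Hk2, the first enzyme of glucose use, fell by 0.84, while Mycn (0.89), Npm1 (0.33) and Ncl (0.23) rose.

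Among loci above the median of edgeR's average accessibility whose libraries did not overlap, the largest rises after Slc16a7 were Etv1 (2.88), Dse (2.77), Ipcef1 (2.53), Sntb1 (2.34), Prkch (2.14), Cobll1 (2.06) and Fyb (2.05). At Dse, which encodes an epimerase of dermatan sulfate, the libraries held 147, 162, 161 and 159 CPM in WT CC, against 19.8, 24.3, 22.1 and 26.1 CPM in WT CB, and all 13 peaks were higher. Ipcef1 and Sntb1 had all of their 16 and 17 peaks higher. The largest falls were Tgfa (-1.85), Dnase1 (-1.81), C8a (-1.76), Cfap74 (-1.72), Ackr4, Gcsam, Rgs6 (-1.63) and Pm20d1 (-1.62). Dnase1, a secreted nuclease gene, held 42.8, 30.4, 31.2 and 52.8 CPM in WT CC, against 141, 140, 137 and 137 CPM in WT CB, and all 5 peaks were lower. The single peaks that fell most lay inside Scn11a on chromosome 9 from 119823708 to 119824208 (log2 -3.53, 0.70 ± 0.357 CPM in WT CC and 8.14 ± 0.645 CPM in WT CB) and 44328 bp from Gpatch2 on chromosome 1 from 187415723 to 187416223 (-3.19).

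Of 31 histone and DNA modifiers 10 were higher and 11 lower (32.3% and 35.5%), near the shares of all loci (30.8% and 31.1%). None passed the test against 1.5-fold. Hdac2 (0.52) and Kdm6a (0.38) were among the rises. The falls included Hdac1 (-1.86, from a single peak at 0.501 CPM in WT CC and 1.86 CPM in WT CB). Nsd2 (-0.54) and Ezh2 (-0.29), the methyltransferase of the germinal center, fell as well. Of 28 DUSP and PTPN phosphatases 9 rose and 13 fell (32.1% and 46.4%). Ptprk held 52.0, 63.8, 75.3 and 57.3 CPM in WT CC, against 8.11, 9.59, 7.08 and 9.97 CPM in WT CB (log2 2.84, SE 0.123, adjusted p = 1.1e-17), with all 11 peaks higher. Dusp14 held 42.5, 35.2, 39.7 and 42.9 CPM in WT CC, against 123, 122, 122 and 112 CPM in WT CB (log2 -1.57, SE 0.0745, adjusted p = 5.27e-17), with all 7 peaks lower. Housekeeping genes had 7 higher and 1 (Gusb, -0.56) lower of 15 (46.7% and 6.67%), with a median of 0.16 and Polr2a at 0.62. Peaks over RefSeq starts were more often higher as a class, and what part start peaks have in these rises was not tested. Without WT CC replicate 2 the rises numbered 10.

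**Figure D3:**
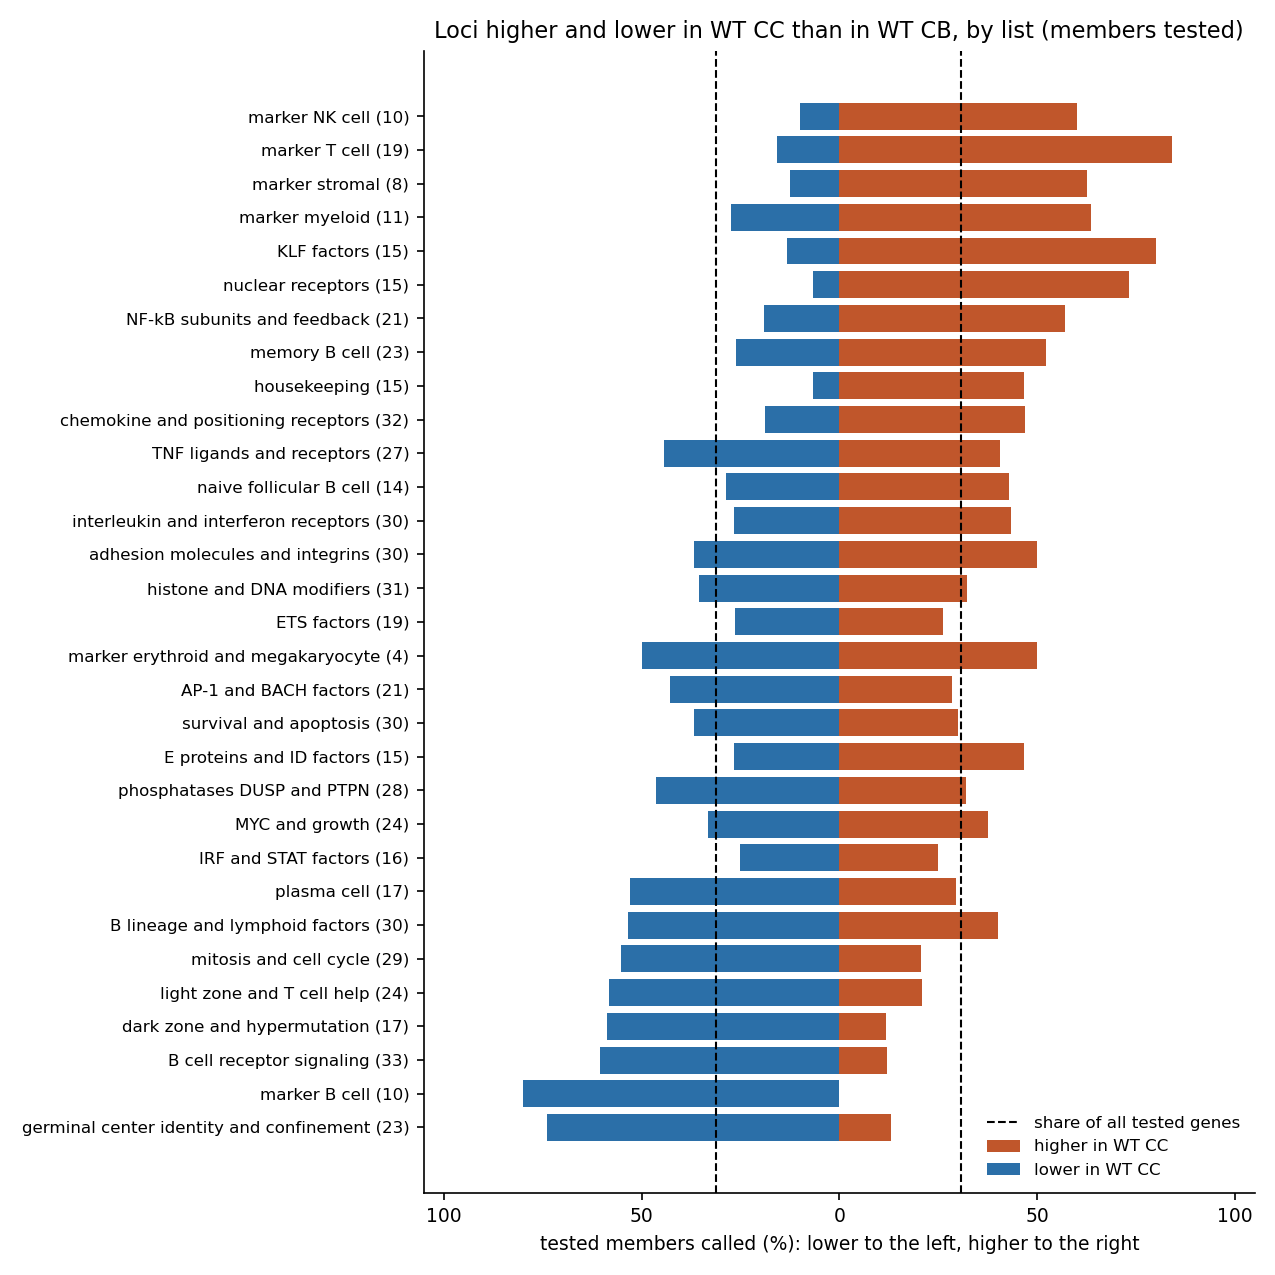
Percent of tested members of each list whose locus was higher (orange, right) or lower (blue, left) in WT CC than in WT CB, ordered by the median log2 change, with the number tested in brackets. Dashed lines mark the shares among all 15064 loci, 30.8% higher and 31.1% lower. KLF factors (80.0% higher) and germinal center identity (73.9% lower) lie near opposite ends.

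Many loci held peaks that moved in opposite directions. Among 9055 loci with at least 3 tested peaks, the peaks of 6864 (75.8%) changed unequally (edgeR diffSpliceDGE, Simes p over the peaks of a locus, adjusted over loci). In 3510 (38.8%) of the 9055 at least 1 peak was called higher and at least 1 lower as well. Of the 5742 loci not called in sum, 1602 held peaks called in both directions. Of the 2673 loci with 5 or more called peaks, 492 had only higher and 370 only lower peaks. Neighbouring called peaks up to 2 kb apart shared their direction in 89.1% of 9456 pairs, and those 10 to 50 kb apart in 75.8% of 6262 pairs.

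Bach2, the repressor that holds B cells back from the plasma fate, is an example not called in sum over peaks up to 50 kb away. Its locus held 604 ± 7.93 CPM in WT CC and 584 ± 11.1 CPM in WT CB (log2 0.05, adjusted p = 0.257). Bach2 was called higher with the peaks inside the gene or within 1 kb (0.32), with those within 10 kb (0.24) and with cyclic loess scaling (0.19). Of its 51 peaks 26 were higher and 11 lower (edgeR's diffSpliceDGE with Benjamini-Hochberg adjustment, adjusted p = 6.26e-22). The peak with the largest rise, inside the gene, held 9.34, 14.0, 12.3 and 11.7 CPM in WT CC, against 1.88, 2.53, 1.83 and 1.70 CPM in WT CB, and the one with the largest fall, 342678 bp away and outside the gene, held 5.50, 3.79, 3.36 and 7.36 CPM in WT CC, against 18.4, 19.7, 17.8 and 18.1 CPM in WT CB. The rising peaks had medians of 7.40 CPM in WT CC and 2.79 CPM in WT CB, and the falling peaks 12.1 CPM in WT CC and 21.1 CPM in WT CB. At Bcl6 the peak over the start was higher (40.5 CPM in WT CC and 25.4 CPM in WT CB, log2 0.67), while a peak 29251 bp from the peak with the largest rise fell by 2.09 (2.44 CPM in WT CC and 10.4 CPM in WT CB). Start peaks were also higher at Foxo1 (0.47), Tcf3 (0.64), Gpr183 (1.15), Cxcr4 (0.25), Prdm1 (0.42) and Smarca4 (0.75), and that of Irf4 was not called (0.14). At Smarca4 itself 4 peaks fell and 2 rose, and the locus held 164 ± 14.4 CPM in WT CC and 190 ± 6.36 CPM in WT CB (log2 -0.21, adjusted p = 0.00164), with groups that overlapped.

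At Cxcr4 7 of 32 peaks were higher and 17 lower, and at Foxo1 4 of 23 were higher and 7 lower. The 8 loci with the smallest Simes p among those with peaks called both ways were Zbtb20, Itpk1, Rasa3, Msh3, Wwox, Tacc1, Eml6 and Trim33. Zbtb20, a repressor gene of long-lived plasma and memory cells, held 12 higher and 32 lower peaks of 56. The rising peaks summed to 291 CPM in WT CC and 152 CPM in WT CB, and the falling ones to 208 CPM in WT CC and 498 CPM in WT CB. Tacc1, a gene of a spindle protein, held 153 ± 7.72 CPM in WT CC and 153 ± 3.69 CPM in WT CB, with 6 higher and 6 lower of 20 peaks. Itpk1, an inositol phosphate kinase gene, held 359 ± 20.1 CPM in WT CC and 348 ± 2.26 CPM in WT CB. Inside it, one peak held 16.2, 20.4, 22.1 and 16.9 CPM in WT CC, against 1.43, 2.49, 1.45 and 1.62 CPM in WT CB (log2 3.44), and another, 68768 bp away, 1.37, 2.63, 4.47 and 4.90 CPM in WT CC, against 8.56, 7.67, 9.32 and 7.53 CPM in WT CB (log2 -1.30). The peaks of Gcsam (7 of 7 lower), S1pr2 (5 of 5 lower) and Ski (11 of 11 higher) had 1 direction, and their sizes were unequal at each of these loci (diffSpliceDGE, adjusted p = 0.000249, 0.000379 and 1.59e-09).

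**Figure D4:**
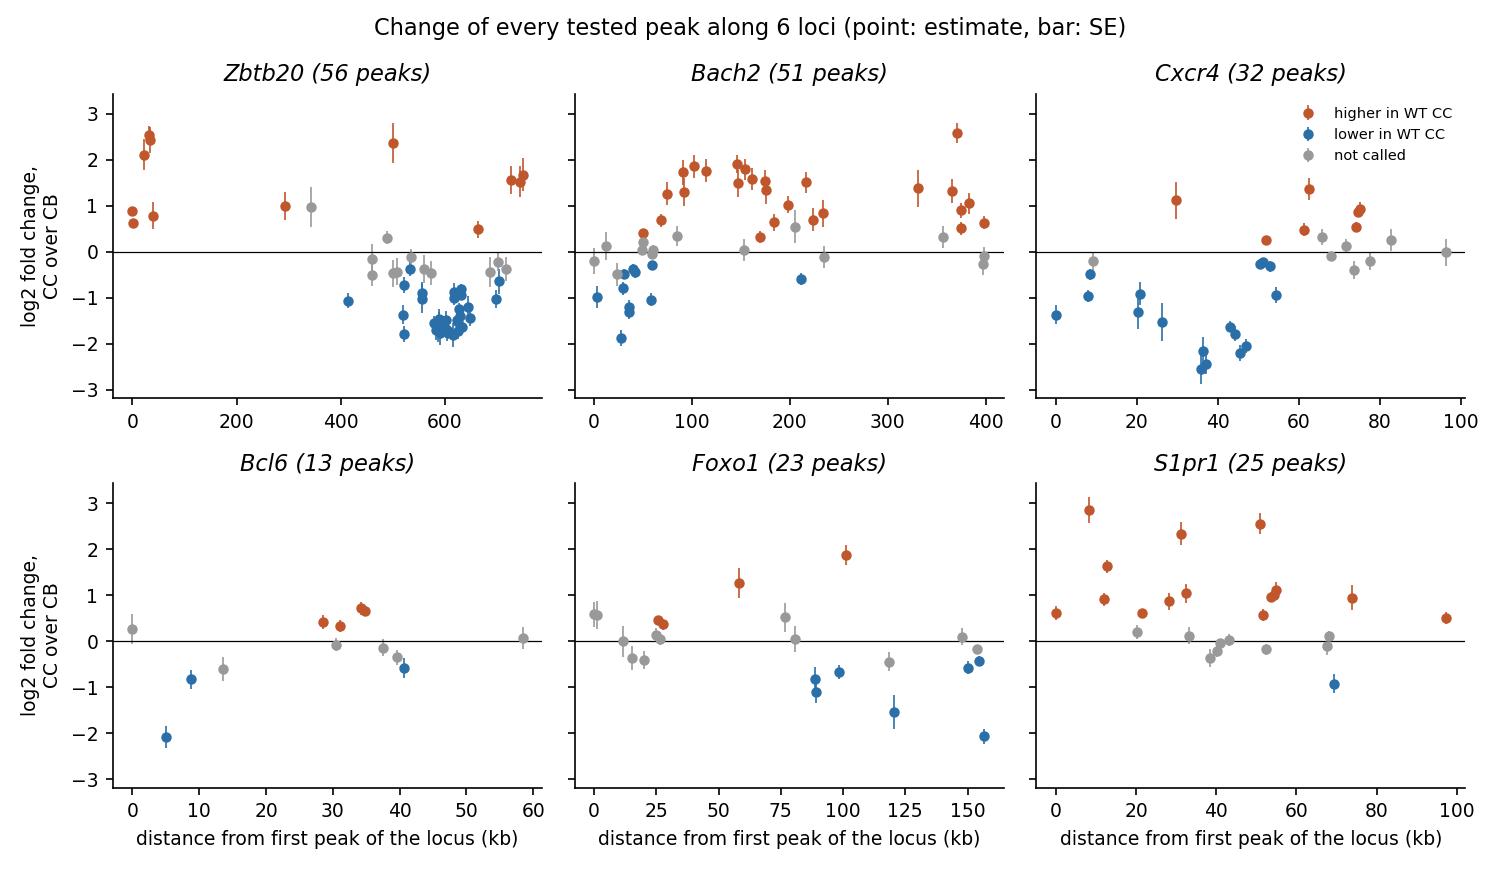
Log2 fold change of WT CC over WT CB with its SE for every tested peak along 6 loci, against the distance in kb from the first peak of the locus, with higher peaks in orange, lower peaks in blue and peaks not called in grey. Zbtb20, Bach2, Cxcr4, Bcl6 and Foxo1 mix both directions, and S1pr1 has 15 higher peaks and 1 lower peak.

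Loci that mark other cells of the spleen were mostly higher in WT CC. Of 19 T cell loci 16 rose and 3 fell, with a median of 1.24, and their summed level was 952 to 1070 CPM in WT CC and 568 to 585 CPM in WT CB. Cd3g (9.71 CPM in WT CC and 1.03 CPM in WT CB) and Cd8a (11.4 CPM in WT CC and 1.34 CPM in WT CB) were close to 1 CPM in WT CB, and the falls were Cd4 (-0.74, but 1.70 with the peaks inside the gene or within 1 kb), Cd2 (-0.47) and Cd247 (-0.18). Bcl11b held 50.8, 53.6, 52.5 and 40.4 CPM in WT CC, against 9.10, 9.73, 9.43 and 12 CPM in WT CB. Of 10 NK cell loci 6 rose and 1, Tbx21 (-0.44), fell, with sums of 324 to 375 CPM in WT CC and 265 to 276 CPM in WT CB. Nkg7 held 12.9, 9.93, 7 and 9.03 CPM in WT CC, against 0.68, 0.91, 1.18 and 1.01 CPM in WT CB. Myeloid loci had 7 rises and 3 falls (Csf3r and Cebpb among them) of 11, stromal loci 5 rises and 1 fall (Cr2) of 8, and erythroid and megakaryocyte loci 2 rises (Tal1 and Epor, the second not called without any 1 of 6 libraries, WT CC replicates 2 to 4 and WT CB replicates 1, 2 and 4, at 0.37 to 0.44) and 2 falls (Klf1 and Itga2b) of 4. Cr2 was not called with WT CB replicates 1 and 3 alone (-0.094) or with WT CB thinned to the depth of WT CC (-0.117). Nor was it called with the peaks inside the gene or within 1 kb (-0.141) or within 10 kb (-0.095). The Tbx21 call ended with WT CB replicates 2 and 4 alone (-0.32). Lists overlap, since Tcf7, Lef1 and Bcl11b also count as lymphoid factors. What part these cells have in the rises at Il7r, Klf2, Ikzf2, Tcf7, Il18r1, Prkch or Fyb was not tested.

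The same contrast in the Smarca4+/- libraries, fitted alone, called many of the same loci. Of the peaks higher in WT CC, 86.0% were also called higher in HET CC than in HET CB, which was 81.9% of the higher peaks of HET, and of the lower peaks 81.3%, which was 77.9% of the lower peaks of HET. Calls in the opposite direction numbered 10 and 17. Among loci 86.4% of the higher and 85.6% of the lower were called alike, with 0 and 6 opposite calls. Slc16a7 rose by 3.25 in HET, Klf3 by 0.99 and Bcl2 by 0.43, and Tox2 fell by 0.88, Bcl2l11 by 0.62 and Itgb3 by 0.78. The difference between the genotypes passed the interaction test over all 16 libraries at 62 of 15062 loci (0.412%), with a smaller change in HET at all 62. The loci named here hold 13 of them. Most named loci were chosen for a large change in WT, which favours a smaller one in HET, and no weight is placed on their number. HET CC libraries held 5310327 to 7474760 counts, more than WT CC, and the part of depth in this was not tested.

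**Figure D5:**
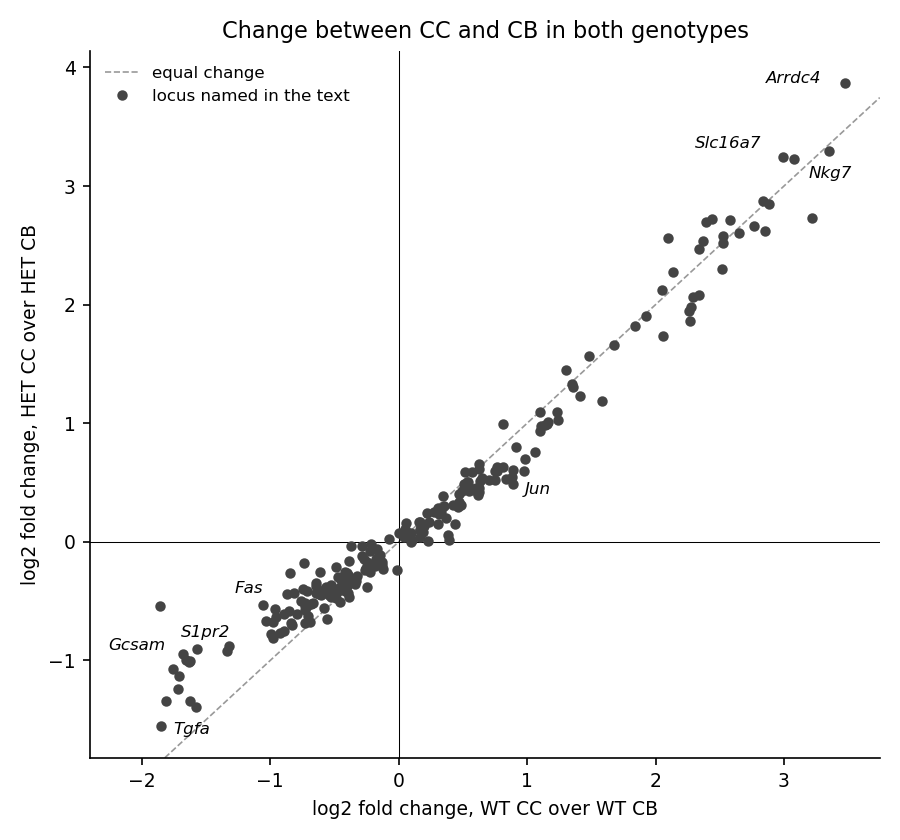
Log2 fold change of CC over CB in WT (x axis) and in HET (y axis) for each locus named in the text, with a dashed line of equal change. S1pr2, Gcsam and Fas, at the lower left, lie above the line, with smaller falls in HET, and Jun lies below it.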

How the data were processed

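Omni-ATAC libraries of WT CC and WT CB (n = 4 each) were analysed. The authors deposited 1 table of raw counts per peak and library, with 82188 peaks of 501 bp each. FastQC, BWA, deepTools, R 4.2.1 and mm10 are named per the submitters' processing notes, and the peak caller and the counting tool were not given in the sources used here.

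Counts were fitted on these 8 libraries alone with edgeR 4.0.16 in R 4.3.3 (TMM factors, filterByExpr, robust quasi-likelihood test, Benjamini-Hochberg adjustment over all features of the table), and log2 fold changes are WT CC over WT CB. Peaks were assigned to the nearest protein-coding gene of RefSeq (GRCm38.p6) within 50 kb, which covered 90.98% of them, and summed per gene. CPM use the TMM-scaled library sizes. Changes against 1.5-fold used glmTreat, and unequal changes within loci used diffSpliceDGE in genes with 3 or more peaks. Totals were 3494356 to 3750936 counts in WT CC and 31696941 to 38798802 in WT CB, so the WT CC counts limit precision. The fitting steps were tested on simulated data.

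Alternatives were other scalings, DESeq2 1.42.0, limma-voom 3.58.1, other filters, WT CB counts thinned to the depth of WT CC, other gene windows, a replicate block, all 16 libraries and leaving out each library. TMM from the most accessible 20% of peaks, voom with a weight per group, either pair of WT CB libraries, and ranking by the mean of both group means were chosen after seeing the data. Named peaks and genes were the 8 largest rises and 8 largest falls above the median of edgeR's average log2 CPM with libraries that did not overlap, up to 4 called members in each direction of each list, members of counts of 5 or fewer, the 8 loci with the smallest Simes p among those with peaks called both ways, and fixed genes of germinal center biology. Other members of lists are named with their values only. A few genes that this rule names are not reported here; counts over lists include them. Members and lists were chosen with earlier results of these data known.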

Additional observations from a re-analysis of the deposited data

Results flagged for a closer look

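A library was marked when its gap to the nearest of the other 3 libraries of its group was large for the range of the group. Chance marks about 1 in 20 groups, and 27 of 490 (5.51%) were marked. On the second principal component WT CC replicate 2 lay at -139.8 and the other WT CC libraries at 42.5 to 54.3.

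WT CC replicate 2 was highest at Ccne1 (324.81 CPM), Cobll1 (265.51 CPM), the S100a3 locus (67.43 CPM) and Spic (15.65 CPM), and lowest at the Gm52672 start peak (0.58 CPM, against 2.72 to 2.80 CPM in the others). WT CC replicate 1 was highest at Tcf12 (231.83 CPM), Ccne2 (77.94 CPM), Cxcr3 (35.12 CPM) and Tgfa (28.26 CPM), and lowest at Mcm5 (97.64 CPM) and Klf1 (30.55 CPM). WT CC replicate 3 was highest at Itpk1 (389.05 CPM), Elk3 (327.76 CPM) and Prkch (174.82 CPM). WT CC replicate 4 was highest at Cd79b (157.17 CPM), Fas (114.0 CPM) and Cd79a (92.84 CPM).

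In WT CB, replicate 1 was highest at Il1r1 (125.59 CPM) and Tgfa (71.9 CPM) and lowest at Serpina9 (1.24 CPM). Replicate 2 was highest at Rev1 (151.58 CPM) and the S100a3 start peak (4.96 CPM) and lowest at Blk (209.05 CPM). Replicate 4 was highest at Bhlhe41 (110.12 CPM) and lowest at Stat5b (152.5 CPM) and Dusp14 (111.75 CPM).

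The change between CC and CB differed between HET and WT at 13 named loci by the edgeR interaction test over 16 libraries. The falls that were smaller in HET differed by 0.725 at Gcsam (log2 -0.95 in HET and -1.68 in WT, adjusted p = 0.00462), 0.661 at S1pr2 (-0.90 and -1.57, 0.0106) and 0.677 at C8a (-1.07 and -1.76, 0.0143). Differences of 0.611 at Rgs6, 0.44 at Tox2, 0.513 at Fas, 0.374 at Il1r1, 0.352 at Eml6, 0.583 at Ackr4, 0.391 at Nuggc and 0.3 at Cd81 had adjusted p-values of 0.0189 to 0.0453. The rises at Jun (log2 0.55 in HET and 0.88 in WT) and S1pr1 (0.15 in HET and 0.44 in WT) differed by -0.337 and -0.291.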

How the results depend on the processing

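Testing against 1.5-fold moved the called peaks to 21852 (13020 higher and 8832 lower) and the called loci to 2010 (1308 higher and 702 lower), since it asks for a larger change. Upper quartile factors lowered the peaks that fell to 14224; the cause was not tested. Leaving out 1 library gave 40515 to 44507 called peaks and 8647 to 8933 called loci, with 6114 to 6630 loci of unequal change. Thinning WT CB left 68426 peaks in the test and 5115 loci of unequal change. Shares of counts by class kept their direction without each library in turn, at 3.45 to 3.71 points for gene ends, -3.04 to -2.91 inside genes, -0.96 to -0.85 within 50 kb and 0.287 to 0.38 beyond, where p was 0.0571 without WT CC replicate 2 or 4. Whether replicate numbers pair the samples was not settled. Deviation correlations between WT CC and WT CB libraries were small, at 0.03 to 0.037 for the same number and -0.038 to 0.032 for other numbers. With the replicate block 43805 peaks and 9194 loci were called, and the exact sign-flip test of the 4 class differences (3.57, -2.99, -0.903 and 0.33 points) cannot go below p = 0.125.

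Of 218 named loci that were called, 128 did not pass the 1.5-fold test. Under the other alternatives in which they were tested, 27 lost their call at least once with the direction kept. The remaining 191 did not, but changes of sign were counted apart from lost calls. Bhlhe41, Cd4, Elk3, Foxo1, Foxp1, Id3 and Sdc1, whose sign turned under at least 1 alternative, are among the 191. Peaks inside a gene or within 1 kb gave log2 changes of the opposite sign at Bhlhe41 (0.19), Cd4 (1.70), Elk3 (0.015), Foxo1 (0.17), Id3 (0.17), Irf4 (0.076) and Sdc1 (-0.50), where fewer peaks enter the sum. The nearest gene within 10 kb did so at Foxo1 (0.13), Id3 (0.008), Irf4 (0.094) and Sdc1 (-0.41). Cyclic loess did so at Foxp1 (0.026), and the cause was not tested. Some loci not called in the main fit gained a call. Peaks inside a gene or within 1 kb gave calls at Bach2 (0.32), Bcl6 (0.35), Ccr6 (0.21), Tcf3 (-0.19) and Scn11a (-1.515). The nearest gene within 10 kb did so at Bach2 (0.24), Ccr6 (0.23) and Scn11a (-0.30), and cyclic loess at Bach2 (0.19) and Itpk1 (0.12). A GC correction was not run, since sequence was used at RefSeq starts alone and not over the other peaks. Loci near 1 CPM rest on a handful of WT CC counts each. With the mean of both group means in place of edgeR's average, an alternative chosen after seeing the data, the rule for the 8 largest changes names 1 of the same 8 rising peaks, 3 of the same 8 falling peaks, 4 of the same 8 rising loci and 6 of the same 8 falling loci.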
